A study of Mus musculus with 23 samples.

Results

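Oxidative phosphorylation was followed through the nuclear genes that encode the subunits of its 5 enzyme complexes, in melanoma tumors treated with pentoxifylline (PTX), norcantharidin (NCTD) or both. The genes were taken from the count table by their symbols, as protein-coding rows whose names begin with the Nduf subunit series, Sdha to Sdhd, Uqcr, Cyc1, the nuclear Cox subunits or Atp5. This gave 90 of the 56748 genes listed, with 38 assigned to complex I, 4 to complex II, 9 to complex III, 21 to complex IV and 18 to complex V. Ndufa4 and Ndufa4l2 were placed with complex IV, where their products work. The symbols are those of the table, so that the genes for the alpha and beta subunits of ATP synthase appear as Atp5a1 and Atp5b, and the ATP synthase inhibitor, listed as Atpif1, lies outside the 90. One entry, Cox5b-ps, is listed as protein-coding but carries the symbol of a pseudogene of Cox5b, and a second row named Atp5o had 0 counts in every tumor.

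The tumors were grown from B16-F1 cells, a mouse melanoma line, under the skin of DBA/2J mice aged 6 to 8 weeks, so that melanoma cells and cells of the host were sequenced together. By the intraperitoneal (IP) route, CONTROL_IP received saline, PTX_IP received PTX at 60 mg/kg, NCTD_IP received NCTD at 3 mg/kg and MIX_IP received both at these doses, with 2 tumors in each group. By the intratumoral (IT) route, CONTROL_IT received DMSO, PTX_IT PTX at 60 mg/kg, NCTD_IT NCTD at 3 mg/kg and MIX_IT both, with 4 tumors in each group except PTX_IT, which held 3. PTX is a methylxanthine derivative and NCTD is a demethylated form of cantharidin. Each route is labelled as a separate batch and had its own vehicle, so route, batch and vehicle cannot be told apart.

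In the inner membrane of mitochondria, complexes I and II pass electrons from NADH and succinate to ubiquinone, complex III passes them to cytochrome c and complex IV to oxygen. Complexes I, III and IV pump protons, and complex V, the ATP synthase, lets the protons return and makes ATP. A few subunits of complexes I, III, IV and V are encoded by the mitochondrial genome, and the rest, with all of complex II, are encoded in the nucleus, so that both genomes must supply matched parts. In melanoma, the melanocytic regulator Mitf is known to raise mitochondrial biogenesis through the coactivator encoded by Ppargc1a.

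Promoters of subunit genes are known for recognition sequences of NRF1, of ETS factors such as GABP, of YY1 and of estrogen-related receptors (ERR). RefSeq promoters on build GRCm38.p6, from 250 bases before to 50 bases after each transcription start, were matched by symbol for 70 of the 89 distinct symbols and gave 75 promoters. On either strand, the NRF1 letters CGCATGCGC were in 8 of them (10.7%, against 1.75% of all 32851 promoters in the table), and the ETS letters CCGGAAG were in 17 (22.7%, against 8.86%). The YY1 letters AAGATGGCG were in 7 (9.33%, against 1.40%) and the ERR letters AAGGTCA were in 8 (10.7%, against 4.72%), with 31 promoters (41.3%, against 15.7%) holding any of the 4. A match describes letters in this window only. The 5 promoters printed here are those of the 3 genes that passed the test in NCTD_IT, Ndufb5 (chr3:32736813-32737092, plus strand), Ndufb6 (chr4:40279392-40279671, minus strand) and Atp5h (chr11:115419890-115420169, minus strand), and those of Cox6a1 (chr5:115348929-115349208, minus strand) and Atp5j (chr16:84834947-84835226, minus strand), which show the NRF1 and YY1 letters. Each runs from 250 bases before to 30 bases after the start, 5′ to 3′ on the strand of the gene, with matches to any of the 4 motifs in capitals, and coordinates are those of GRCm38.p6, not of the build of the counts.
Ndufb5: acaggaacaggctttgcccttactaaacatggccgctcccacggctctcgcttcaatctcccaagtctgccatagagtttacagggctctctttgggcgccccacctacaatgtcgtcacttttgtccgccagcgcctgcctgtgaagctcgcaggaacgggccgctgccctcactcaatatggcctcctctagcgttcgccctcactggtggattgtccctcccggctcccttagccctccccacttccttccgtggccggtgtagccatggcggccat
Ndufb6: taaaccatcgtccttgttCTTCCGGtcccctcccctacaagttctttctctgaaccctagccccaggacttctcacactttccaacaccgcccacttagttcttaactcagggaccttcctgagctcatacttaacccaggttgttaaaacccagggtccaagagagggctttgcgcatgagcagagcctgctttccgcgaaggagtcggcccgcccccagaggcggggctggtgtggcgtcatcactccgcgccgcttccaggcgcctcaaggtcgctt
Cox6a1: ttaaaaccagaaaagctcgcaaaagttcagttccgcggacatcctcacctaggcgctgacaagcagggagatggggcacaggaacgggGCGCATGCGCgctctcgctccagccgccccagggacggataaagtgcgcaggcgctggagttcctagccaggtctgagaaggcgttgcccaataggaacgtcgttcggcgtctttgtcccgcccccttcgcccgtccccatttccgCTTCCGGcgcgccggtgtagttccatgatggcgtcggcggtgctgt
Atp5j: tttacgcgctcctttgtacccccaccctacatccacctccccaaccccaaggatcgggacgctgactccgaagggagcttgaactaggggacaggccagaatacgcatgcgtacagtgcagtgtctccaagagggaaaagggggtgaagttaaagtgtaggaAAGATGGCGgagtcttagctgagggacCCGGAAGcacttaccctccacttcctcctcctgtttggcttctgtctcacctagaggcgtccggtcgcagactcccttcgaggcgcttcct
Atp5h: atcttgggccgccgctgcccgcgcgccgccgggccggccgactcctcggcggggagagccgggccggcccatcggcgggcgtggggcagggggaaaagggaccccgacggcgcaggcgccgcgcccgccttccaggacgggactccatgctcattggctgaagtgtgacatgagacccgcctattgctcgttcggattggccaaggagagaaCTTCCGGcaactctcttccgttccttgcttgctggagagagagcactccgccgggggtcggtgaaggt
Ndufb6 and Atp5h each held the ETS letters in reverse complement, 232 and 38 bases before the start, and Ndufb5 held none of the 4 motifs in the stretch shown. Cox6a1 held the NRF1 letters on both strands in overlap, 162 and 161 bases before the start, and the ETS letters 16 bases before it, and Atp5j held the YY1 letters 88 bases and the ETS letters 61 bases before its own start. Another promoter matched to Atp5j (chr16:84835576-84835875, minus strand) held none of the 4 motifs and is not printed.

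The table held 2861578 to 6702374 counts per tumor, and the 90 genes took between 2.60% and 4.38% of them. Levels are given as CPM, counts scaled to a common library size by TMM, with the standard deviation (SD) over tumors. In CONTROL_IT the summed level was 10251 ± 507 CPM for complex I (SD, n = 4), 1166 ± 63.8 for complex II, 4077 ± 362 for complex III, 11655 ± 593 for complex IV and 12877 ± 735 for complex V. In CONTROL_IP the complexes stood at 9498 ± 447, 1068 ± 157, 3368 ± 438, 10524 ± 1271 and 11428 ± 936 CPM in the same order (SD, n = 2). The lowest sum of all 23 tumors was that of NCTD_IT_18 for each complex, at 6947, 773, 2300.2, 7789 and 7948 CPM.

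**Figure D1:**
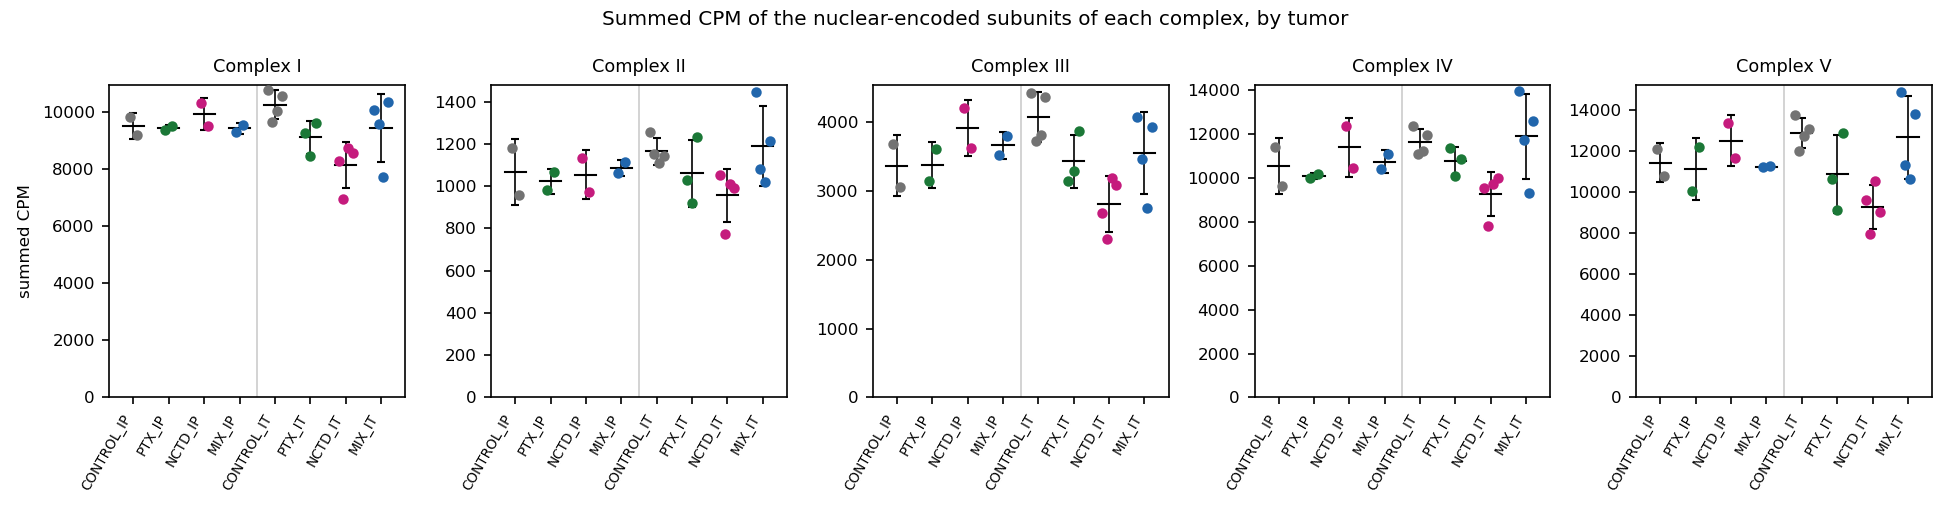
Summed CPM of the nuclear-encoded subunits of complexes I to V (vertical axes, starting at 0) in the 8 groups, with a point for each tumor, a line at the group mean and bars of 1 SD. The 4 NCTD_IT tumors lie below the 4 CONTROL_IT tumors for each complex, while MIX_IT spreads from below to above them for complexes II, IV and V and reaches from below into their range for complexes I and III.

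Of the 90 genes, 82 passed the filter on low counts in the tumors of each route. The genes left out were isoforms of other tissues or entries almost without counts: over the 23 tumors Ndufa4l2 had 154 counts, Cox8b 45, Cox6b2 25, Cox7b2 3, Cox4i2 2, and Cox8c, Ndufb11b and the second Atp5o row 0. Treated tumors were set against CONTROL_IP or CONTROL_IT in edgeR's quasi-likelihood test with Benjamini-Hochberg adjustment over all genes tested, at an adjusted p below 0.05.

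In NCTD_IT the nuclear subunit genes stood lower than in CONTROL_IT in all 5 complexes, and 3 of the 82 tested passed the threshold, all lower (1.37% of the 12480 genes tested were called, 0.449% of them lower). The genes were Ndufb6 and Ndufb5, accessory subunits of the membrane arm of complex I, and Atp5h, subunit d in the peripheral stalk of ATP synthase. At an unadjusted p below 0.05, 42 of the 82 were lower and 1 was higher, against 10% and 11.6% of all genes tested. The fitted log2 fold change was below 0 for 73 of the 82, against 48% of all genes, and its median was -0.43, against 0.03 over all genes. For 41 genes every NCTD_IT tumor lay below every CONTROL_IT tumor (8.95% of all genes did), and for 1 gene every NCTD_IT tumor lay above (7.82%). In a bulk tumor, fewer cells of a type and less RNA per cell cannot be told apart.

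**Figure D2:**
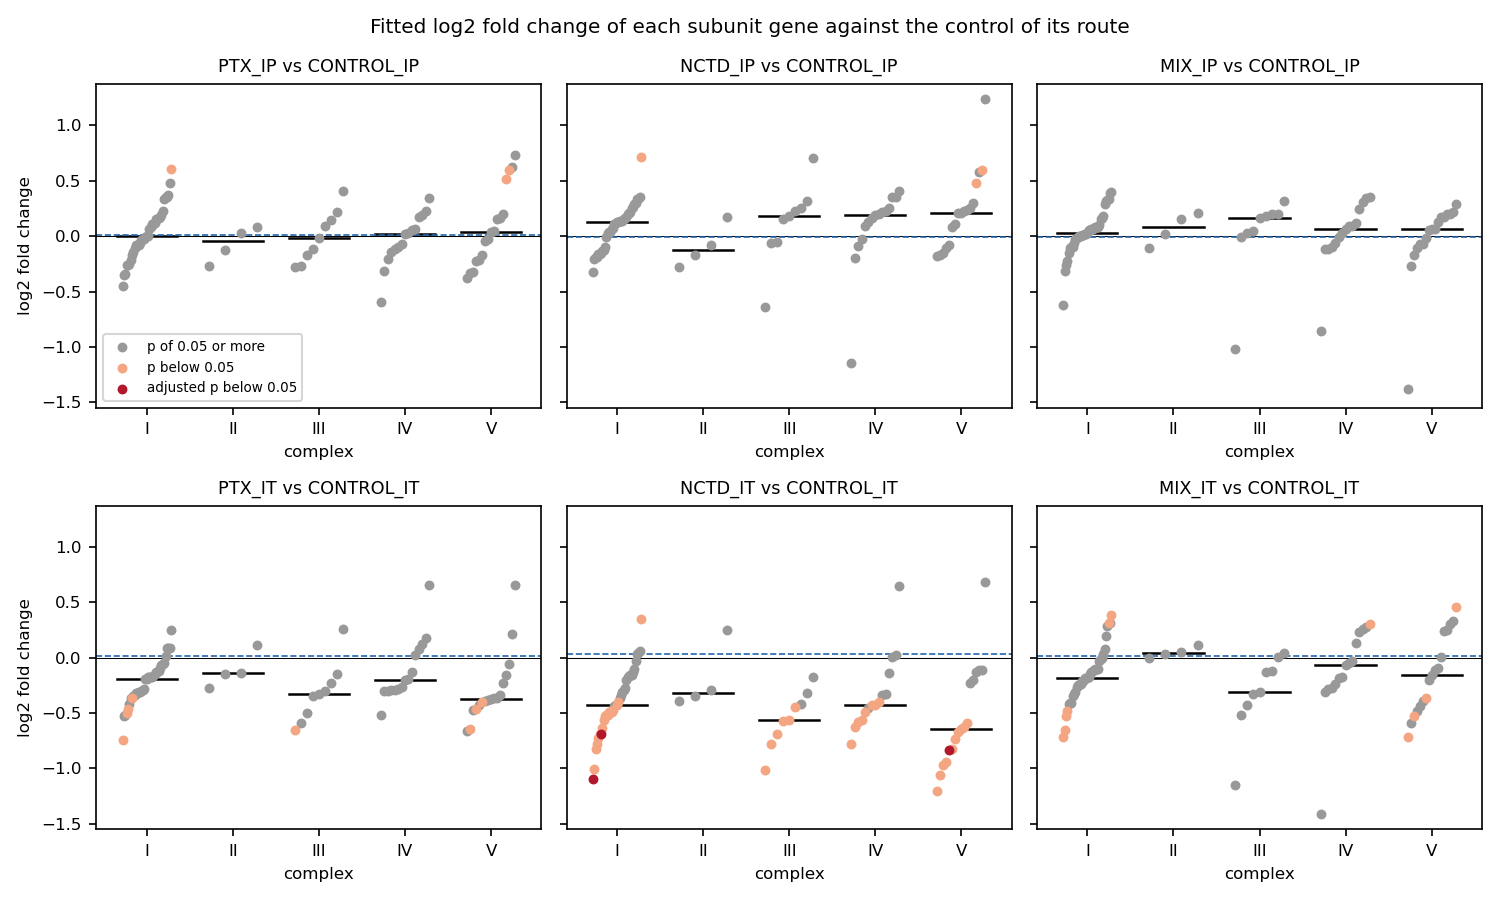
Fitted log2 fold change (vertical axis) of each subunit gene tested, ordered within complexes I to V (horizontal axis), for 3 treatments by the IP route (top) and by the IT route (bottom). Colors give the edgeR p, black lines the median of a complex and the dashed line the median of all genes tested. In NCTD_IT 73 of 82 genes lie below 0, and in NCTD_IP 56 of 82 lie above 0.

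Ndufb6 stood at 44.5, 41.2, 45.6 and 36.5 CPM in CONTROL_IT and at 23.3, 15.9, 21.4 and 17.6 CPM in NCTD_IT. The groups did not overlap, and the log2 fold change was -1.10 (SE 0.25), with an adjusted p of 0.0414 by edgeR. Atp5h had 492, 452, 526 and 543 CPM in CONTROL_IT and 317, 201, 279.7 and 333 CPM in NCTD_IT. Its groups were also apart, at a log2 fold change of -0.83 (SE 0.20) and an adjusted p of 0.0487 by edgeR. Ndufb5 had 592, 483, 509 and 558 CPM in CONTROL_IT and 349.8, 288, 344 and 349 CPM in NCTD_IT. Its log2 fold change was -0.69 (SE 0.16), with an adjusted p of 0.0491 by edgeR, and NCTD_IT_18 was the lowest of the 8 tumors for all 3 genes. These calls lay close to the threshold: with any 1 of the 8 tumors left out, 0 or 1 of the 82 genes passed. Over all genes, the calls in these fits ranged from 0 of 12443 without CONTROL_IT_11 to 191 of 12402 without CONTROL_IT_10. DESeq2 on the 2 groups called 33 subunit genes, beside 1378 of 23520 genes in all. By edgeR on the 2 groups, 25 were called, beside 946 of 11263. A fit that took the level of Xist as covariate called 0, as it did over all 12480 genes, and put the median at -0.13. In it the estimates were -0.46 (SE 0.56) for Ndufb6, -0.44 (SE 0.43) for Atp5h and -0.19 (SE 0.34) for Ndufb5. Xist was above the controls in every NCTD_IT tumor, so this fit separates Xist and treatment poorly.

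**Figure D3:**
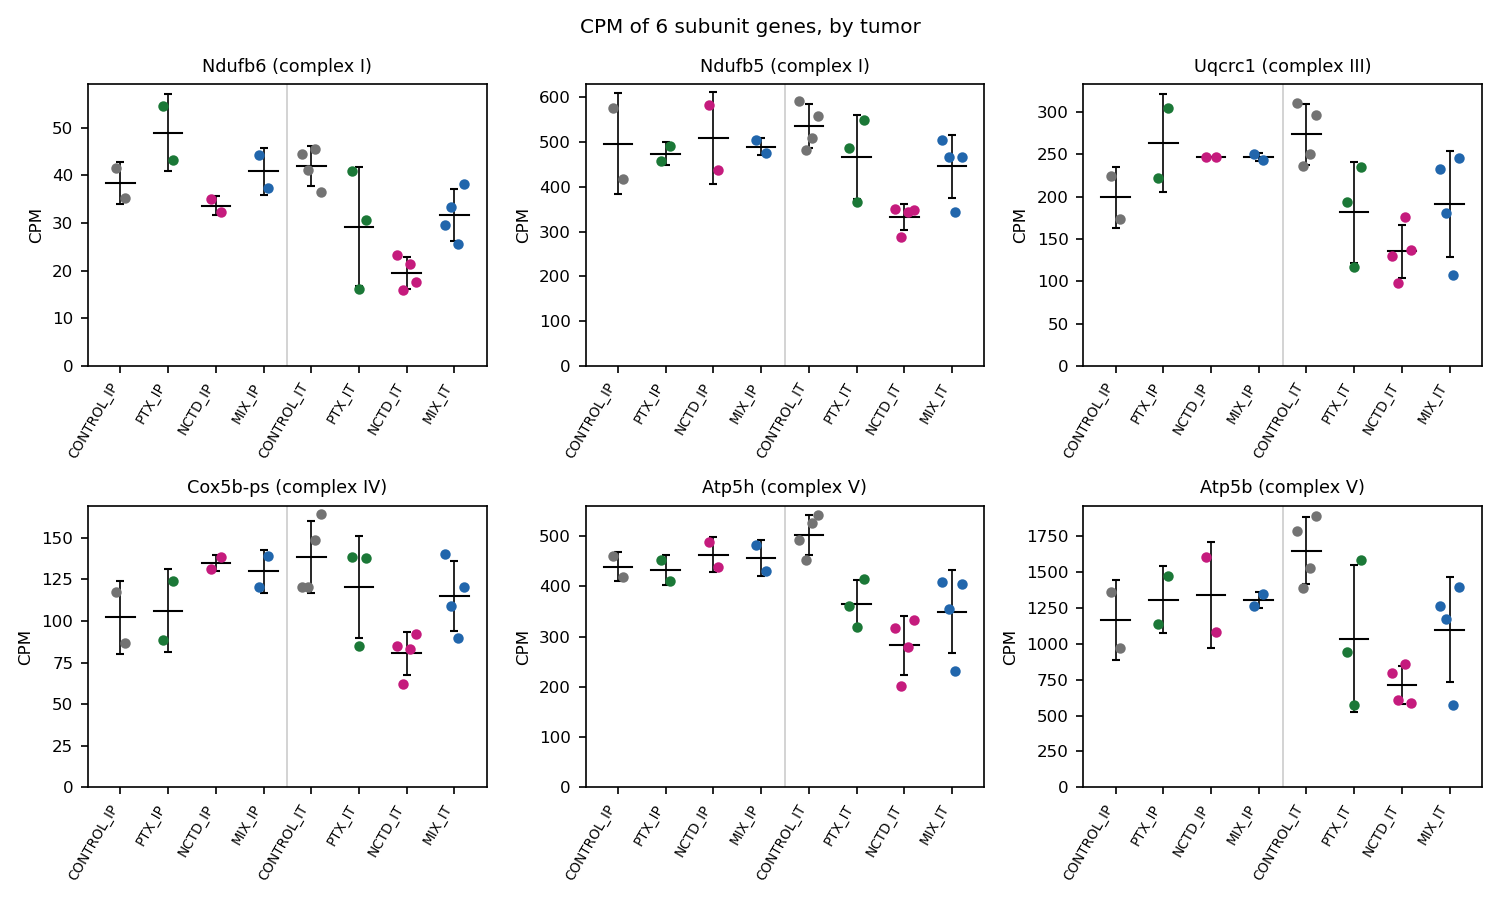
CPM (vertical axes, starting at 0) of 6 subunit genes in each tumor of the 8 groups, with the group mean as a line and bars of 1 SD. Ndufb6, Ndufb5 and Atp5h passed the threshold in NCTD_IT, while Uqcrc1, Cox5b-ps and Atp5b did not. All 6 genes are lower in the 4 NCTD_IT tumors than in the 4 CONTROL_IT tumors.

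In complex I, 17 of the 37 genes tested were lower in NCTD_IT at an unadjusted p below 0.05 and 1 was higher, with a median log2 fold change of -0.42. Ndufv1, which carries the flavin that takes electrons from NADH, had 73.6, 53.0, 60.7 and 74.7 CPM in CONTROL_IT and 25.6, 30.2, 55.7 and 36.8 CPM in NCTD_IT, a log2 fold change of -0.83 (SE 0.28) and an adjusted p of 0.105 by edgeR. NCTD_IT_19 lay above the lowest control, and the other 3 NCTD_IT tumors lay below all controls. Ndufs1, a core subunit of the peripheral arm, had a log2 fold change of -0.16 (SE 0.22), with an unadjusted p of 0.488 by edgeR. Ndufs6, an accessory subunit of the peripheral arm that binds zinc, had 196, 149, 164 and 204 CPM in CONTROL_IT and 117, 70.2, 129 and 97.6 CPM in NCTD_IT, at a log2 fold change of -0.78 (SE 0.21) and no overlap of the groups. Ndufv3, an accessory subunit beside Ndufv1, had 955, 988, 860.0 and 1042 CPM in CONTROL_IT and 479, 389, 468 and 574 CPM in NCTD_IT, at a log2 fold change of -1.01 (SE 0.31). At the other end, Ndufa5, Ndufa2, Ndufb8 and Ndufb4 had log2 fold changes of 0.06, 0.04, 0.04 and -0.03. Ndufb3, an accessory subunit, was the gene with a p below 0.05 in the other direction, with 743, 742, 742 and 628 CPM in CONTROL_IT and 957, 829.7, 929.7 and 918 CPM in NCTD_IT and a log2 fold change of 0.35 (SE 0.14). Its NCTD_IT tumors all lay above the controls.

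Complex II, which is also an enzyme of the TCA cycle, had no gene at an unadjusted p below 0.05, and the median of its 4 genes was -0.32. Sdha, the flavoprotein, had 219, 185, 209.9 and 204 CPM in CONTROL_IT and 179, 157, 174 and 157 CPM in NCTD_IT, at a log2 fold change of -0.29 (SE 0.16). The groups of Sdha did not overlap although the test gave an unadjusted p of 0.0881 by edgeR. Sdhb, the iron-sulfur subunit, had a log2 fold change of -0.40 (SE 0.19) and Sdhc, a membrane anchor, -0.35 (SE 0.18). Sdhd, the other anchor, spread from 67.1 to 202 CPM among the NCTD_IT tumors and from 61.3 to 141 CPM among the controls, and its log2 fold change was 0.25 (SE 0.48).

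In complex III all 9 genes had a log2 fold change below 0 in NCTD_IT, 6 of them at an unadjusted p below 0.05, and the median was -0.57. Uqcrc1, a core protein, had 311, 236, 251 and 296 CPM in CONTROL_IT and 130.0, 98.1, 176 and 137 CPM in NCTD_IT. The groups were apart, with a log2 fold change of -1.02 (SE 0.26) and an adjusted p of 0.0565 by edgeR. Cyc1, cytochrome c1, had 203, 132, 148 and 182 CPM in CONTROL_IT and 90.2, 88.7, 124 and 83.5 CPM in NCTD_IT, at a log2 fold change of -0.78 (SE 0.22) and an adjusted p of 0.0629 by edgeR. NCTD_IT_19 stood above the other 3 tumors of its group and still below the lowest control. Uqcrfs1, the Rieske iron-sulfur protein, had a log2 fold change of -0.44 (SE 0.18) and an unadjusted p of 0.0259 by edgeR. With Xist as covariate, a fit that separates Xist and treatment poorly, the estimates turned to 0.033 (SE 0.44) for Cyc1 and 0.37 (SE 0.34) for Uqcrfs1. Among the small accessory subunits, Uqcr10 had 741, 539, 727 and 691 CPM in CONTROL_IT and 363, 377, 486 and 445 CPM in NCTD_IT, at a log2 fold change of -0.69 (SE 0.18). Uqcrq had 1303, 1040.5, 1149 and 1353 CPM in CONTROL_IT and 809, 727, 886 and 849 CPM in NCTD_IT, at a log2 fold change of -0.57 (SE 0.16). The groups of both genes were apart, whereas Uqcrh overlapped, with 350.2 to 583 CPM in CONTROL_IT and 244 to 600.3 CPM in NCTD_IT.

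In complex IV, 8 of the 15 genes tested were lower at an unadjusted p below 0.05 and none was higher, with a median of -0.43. Cox5b-ps had the smallest p, with 120.2, 121, 149 and 164 CPM in CONTROL_IT and 85.2, 62.3, 83.0 and 92.0 CPM in NCTD_IT, a log2 fold change of -0.78 (SE 0.20) and an adjusted p of 0.0565 by edgeR. Cox5b, whose reads it can share as a near-identical copy, had a log2 fold change of -0.63 (SE 0.24) and an adjusted p of 0.15. Cox4i1, the common isoform of subunit 4, had 619, 502, 624 and 689 CPM in CONTROL_IT and 389.6, 381, 459 and 499.5 CPM in NCTD_IT. The groups of Cox4i1 met within a few CPM without overlap, and its log2 fold change was -0.49 (SE 0.18). Cox7b, a small subunit of the membrane part, had 2018, 2097, 1933 and 2258 CPM in CONTROL_IT and 1385, 1149, 1469 and 1540.4 CPM in NCTD_IT, at a log2 fold change of -0.58 (SE 0.18). Its NCTD_IT tumors all lay below the controls. Ndufa4 had a log2 fold change of -0.34 (SE 0.19) and Cox5a -0.45 (SE 0.26), both at an unadjusted p above 0.05. Cox7c and Cox6c, among the genes of complex IV with the most counts, had log2 fold changes of 0.01 (SE 0.14) and 0.02 (SE 0.13).

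Complex V had the lowest median of the 5 complexes in NCTD_IT, -0.64, with 11 of 17 genes lower at an unadjusted p below 0.05 and none higher. Atp5b, the catalytic beta subunit, had 1785, 1385, 1525 and 1889 CPM in CONTROL_IT and 794, 611, 860.2 and 590.2 CPM in NCTD_IT. Each NCTD_IT tumor lay below each control, and the log2 fold change of -1.20 (SE 0.29), the largest in size of the 82, had an adjusted p of 0.0538 by edgeR. With Xist as covariate it turned to 0.10 (SE 0.54), and that of Atp5a1 to 0.33 (SE 0.41), both smaller than their standard errors. Atp5a1, the alpha subunit, had 1069.9, 777, 896 and 929.6 CPM in CONTROL_IT and 674, 541, 700.5 and 527 CPM in NCTD_IT, at a log2 fold change of -0.59 (SE 0.21). In the central stalk, Atp5c1 (gamma) had a log2 fold change of -0.94 (SE 0.29), Atp5d (delta) -1.06 (SE 0.29) and Atp5e (epsilon) -0.67 (SE 0.25), each at an unadjusted p below 0.05. The peripheral stalk was mixed, with Atp5j (F6) at -0.73 (SE 0.24) beside Atp5h, and Atp5pb (subunit b) and Atp5o (OSCP) at -0.23 (SE 0.24) and -0.11 (SE 0.16) and an unadjusted p above 0.05. In the membrane part, Atp5j2 (subunit f) had 443, 395, 441 and 546 CPM in CONTROL_IT and 277, 249.6, 316 and 329 CPM in NCTD_IT, at a log2 fold change of -0.64 (SE 0.16) and an adjusted p of 0.0548 by edgeR. Atp5k (subunit e) and Atp5l (subunit g), which join ATP synthase into dimers, had log2 fold changes of -0.13 (SE 0.24) and -0.20 (SE 0.31), with overlapping groups. Atpif1, the inhibitor of ATP synthase and not counted among the 90, had 541, 493, 518 and 561 CPM in CONTROL_IT and 299, 234, 334 and 261 CPM in NCTD_IT.

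Split by level over all 23 tumors, the 41 genes with the higher mean CPM had a median log2 fold change of -0.44 in NCTD_IT and the 41 with the lower mean CPM -0.42, which is about the same value. By tumor, the median difference from the control mean over 83 genes was -0.42 in NCTD_IT_17, -0.72 in NCTD_IT_18, -0.40 in NCTD_IT_19 and -0.43 in NCTD_IT_20, and it lay between -0.10 and 0.11 among the 4 controls. NCTD_IT_18 was lowest by this measure too, with 79 of 83 genes below the control mean.

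The 13 subunits encoded by mitochondrial DNA had values on the other side of 0. In NCTD_IT all 13 had a log2 fold change above 0, with a median of 0.71. By edgeR, 10 were higher at an unadjusted p below 0.05 (11.6% of all genes) and 1 at an adjusted p below 0.05 (1.37% of all genes were called). Their summed level was 25910.4, 24999, 22374 and 23029.7 CPM in the CONTROL_IT tumors and 54603, 57155, 22584 and 38341 CPM in the NCTD_IT tumors. NCTD_IT_19 lay within the controls, while the other 3 tumors lay above them. The nuclear subunits summed to 42546, 37619.5, 38888 and 41054 CPM in CONTROL_IT and to 31157, 25757, 33181 and 31656 CPM in NCTD_IT, and here all 4 NCTD_IT tumors, NCTD_IT_19 included, lay below the controls.

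Other RNA classes moved with the same tumors. Of the genes for cytosolic ribosomal proteins, 47 of 79 were lower in NCTD_IT at an unadjusted p below 0.05 and 2 were higher, 2 were called lower by edgeR, and the median was -0.44, next to -0.43 for the nuclear subunits. Over all genes tested there, 10% were lower and 11.6% higher at the unadjusted threshold, and 0.449% were called lower. Malat1, an RNA retained in the nucleus, had 77.5, 88.5, 76.3 and 96.5 CPM in CONTROL_IT and 402, 693, 279 and 536 CPM in NCTD_IT, and it was called higher, as was the nuclear RNA Neat1. All 4 of the listed nuclear RNAs were higher at an unadjusted p below 0.05. The melanocytic markers, which are the defining genes of the grafted line, had a median of -0.38 in NCTD_IT over 10 genes, with 1 called lower, and summed to 28034 to 33874 CPM in CONTROL_IT and 20506 to 28966 CPM in NCTD_IT. Fibroblast markers summed to 157 to 421 CPM in CONTROL_IT and 444 to 1731 CPM in NCTD_IT, with 6 of the 8 tested higher at an unadjusted p below 0.05. Endothelial markers summed to 75.7 to 106 and 108 to 196 CPM in the same groups, with 5 of 8 higher at that threshold. Erythroid markers summed to 1238 to 6944 and 258 to 1359.8 CPM, with 3 of 4 lower. The part of these classes and cells in the lower subunit genes was not tested.

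**Figure D4:**
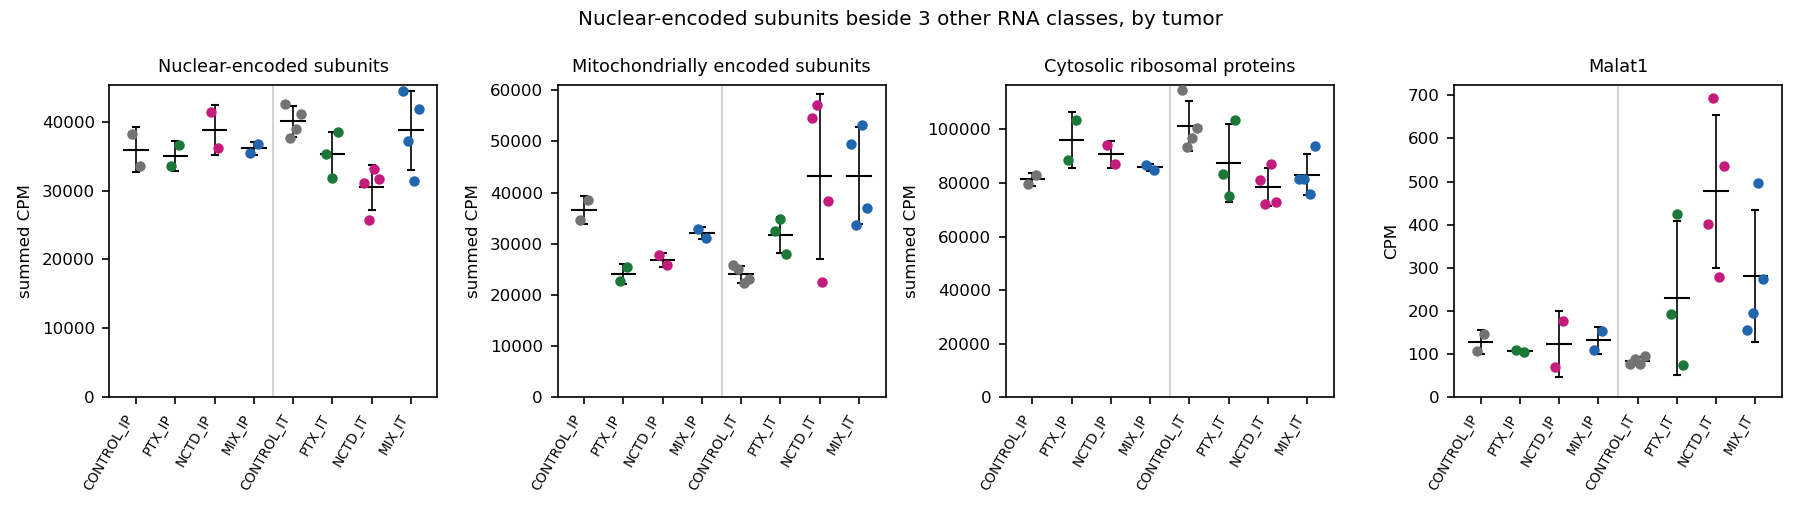
Summed CPM of the nuclear-encoded subunits, the 13 mitochondrially encoded subunits and the cytosolic ribosomal proteins, and CPM of Malat1 (vertical axes, starting at 0), by tumor in the 8 groups, with the group mean as a line and bars of 1 SD. In NCTD_IT the first and the third class are low and Malat1 is high in all 4 tumors, while the mitochondrially encoded subunits are high in 3 of 4.

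The sex-linked genes also divided the IT groups. Xist, which is transcribed from the inactive X chromosome of female cells, was at 5.56, 12.9, 5.19 and 13.6 CPM in NCTD_IT and 9.20, 11.6 and 1.28 CPM in PTX_IT, against 0 to 0.566 CPM in CONTROL_IT and 0 in every MIX_IT tumor. Ddx3y, of the Y chromosome, was at 1.03 to 8.98 CPM in CONTROL_IT and 6.83 to 15.5 CPM in MIX_IT, against 0 to 0.294 CPM in NCTD_IT and 0 to 0.279 CPM in PTX_IT. The treatment of NCTD_IT and PTX_IT and the sex-linked expression of their tumors cannot be told apart in comparisons with CONTROL_IT, and the study's methods describe the groups as matched for sex.

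In PTX_IT no subunit gene passed the threshold, as no gene of the 12480 did (0%). At an unadjusted p below 0.05 by edgeR, 8 of 82 were lower and 0 were higher, against 2.16% and 4.18% of all genes. The log2 fold change was below 0 for 68 of 82 (48.4% of all genes), with a median of -0.28 against 0.02. The median was -0.33 to -0.17 with a tumor left out, the latter without PTX_IT_15. It turned to 0.081 when the level of Xist was a covariate, with 1 gene at an unadjusted p below 0.05 (445 of 12480 genes in all). Every PTX_IT tumor lay below every control for 11 genes (4.15% of all genes). Atp5g1, an isoform of subunit c, had 103, 81.2 and 92.5 CPM in PTX_IT against 159.9, 110.2, 141 and 167 CPM in CONTROL_IT, with a log2 fold change of -0.65 (SE 0.23) and an adjusted p of 0.785 by edgeR. Cyc1 had 104, 76.7 and 135 CPM in PTX_IT and a log2 fold change of -0.65 (SE 0.24), which was 0.0048 (SE 0.39) with Xist as covariate. Ndufs7, an iron-sulfur subunit of complex I, had 112, 72.2 and 110.2 CPM in PTX_IT against 133, 132, 128 and 149 CPM in CONTROL_IT, with a log2 fold change of -0.46 (SE 0.19). The 3 tumors were not alike: the median difference from the control mean over 83 genes was -0.19 on the log2 scale in PTX_IT_13, -0.47 in PTX_IT_15 and -0.07 in PTX_IT_16. The count of 8 genes turned on single tumors: it was 23 without PTX_IT_16, 1 without PTX_IT_15, 2 without CONTROL_IT_12 and 5 without CONTROL_IT_9. Over all genes these fits had 1872 of 13039, 246 of 12943, 462 of 12439 and 446 of 12399 in the same order. Malat1 stood in the reverse order of the median differences, at 193, 424 and 74.2 CPM in PTX_IT_13, PTX_IT_15 and PTX_IT_16. Of the 13 mitochondrially encoded subunits, 11 had a log2 fold change above 0 in PTX_IT, 1 at an unadjusted p below 0.05 and none called by edgeR, with a median of 0.36 and summed levels of 32491, 34884 and 27964 CPM. Their part and that of Malat1 were not tested.

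In MIX_IT no subunit gene passed the threshold (0% of 12480 genes did). At an unadjusted p below 0.05 by edgeR, 7 of 82 were lower and 4 were higher, against 5.11% and 7.88% of all genes, and the median was -0.15 against 0.01, with 59 of 82 estimates below 0 (48.9% of all genes). The median was -0.026 without MIX_IT_23 and -0.22 without MIX_IT_21. The 11 genes at an unadjusted p below 0.05 became 7 without CONTROL_IT_11 (1291 of 12443 genes in all) and 4 without CONTROL_IT_12 (1151 of 12439). The lower genes were Atp5e, Atp5h, Ndufv3, Atp5j2, Ndufs6, Ndufa7 and Ndufb2, and the higher ones Atp5o, Ndufb3, Cox7c and Ndufa5. Atp5o, the link between the catalytic head and the peripheral stalk, had 2292, 1755, 1937 and 2023 CPM in MIX_IT against 1258, 1507, 1449.6 and 1615 CPM in CONTROL_IT, with a log2 fold change of 0.45 (SE 0.16) and an adjusted p of 0.235 by edgeR. Ndufb3 had 972, 877, 939 and 935 CPM in MIX_IT, all above the controls, and a log2 fold change of 0.38 (SE 0.14). Cox7c had 2956, 2587, 2374 and 2769.8 CPM in MIX_IT against 2376, 2179, 1928 and 2137 CPM in CONTROL_IT, with a log2 fold change of 0.31 (SE 0.14). The summed level of the 90 genes was 44407, 37180.3, 31437 and 41880.4 CPM in MIX_IT_21 to MIX_IT_24, so that MIX_IT held both the highest sum of the 23 tumors and 2 tumors below every CONTROL_IT tumor. MIX_IT_23 also had the highest fibroblast markers, 8649.7 CPM, and the lowest melanocytic markers, 16513 CPM, of all tumors, and their part was not tested. The ribosomal protein genes had 33 of 79 lower and 1 higher at an unadjusted p below 0.05 in MIX_IT, with a median of -0.37, and the difference between these classes was not tested. All 13 mitochondrially encoded subunits had a log2 fold change above 0 in MIX_IT as well, with a median of 0.43, 5 of them at an unadjusted p below 0.05 and none called by edgeR. Their summed level was 49426, 33641, 53163 and 36880.0 CPM in MIX_IT, above every control. All 4 of the listed nuclear RNAs were higher at an unadjusted p below 0.05 there, with Malat1 at 156, 194, 498 and 274 CPM, and their part was not tested.

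The combination was set against the sum of its drugs on the log2 scale, as MIX_IT minus NCTD_IT minus PTX_IT plus CONTROL_IT. No subunit gene passed the threshold (0.0401% of 12480 genes did, and 0.024% with a departure below 0). The departure was above 0 for 73 of 82 genes and below 0 for 9 (50.8% of all genes), with a median of 0.54 against -0.01 over all genes, and 30 genes were higher and 0 lower at an unadjusted p below 0.05 by edgeR, against 4.92% and 6.39% of all genes. By complex the 30 were 11 of complex I, 1 of complex II, 5 of complex III, 4 of complex IV and 9 of complex V. Atp5g1 had the smallest p, with a departure of 1.38 (SE 0.32) and an adjusted p of 0.308 by edgeR. Its level was 189, 116, 100.5 and 137 CPM in MIX_IT and 94.6, 61.1, 96.5 and 73.1 CPM in NCTD_IT. This contrast sets the 2 groups without Xist, MIX_IT and CONTROL_IT, against the 2 with it, so that a departure from the sum and a difference with the sex-linked genes cannot be told apart.

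By the IP route no subunit gene passed the threshold for any treatment, as no gene did (0% of 12424 in each comparison). In NCTD_IP 3 of 82 genes were higher and 0 lower at an unadjusted p below 0.05 by edgeR, against 1.92% and 1.67% of all genes, and the median was 0.14 against -0.01, with 26 of 82 estimates below 0 (50.9% of all genes). This median was 0.032 without CONTROL_IP_2, 0.013 without NCTD_IP_5 and 0.033 with Xist as covariate. Without NCTD_IP_5 the 3 genes became 1, beside 461 of 13330 genes in all. CONTROL_IP_2 was the only IP tumor with counts of Xist, at 8.26 CPM with 0.451 CPM of Ddx3y, so that the 2 IP controls were also divided by the sex-linked genes. Ndufs8, an iron-sulfur subunit of complex I, had 118 and 114 CPM in NCTD_IP and 54.6 and 87.0 CPM in CONTROL_IP, with a log2 fold change of 0.71 (SE 0.23) and an adjusted p of 0.999. Atp5d had 279 and 281 CPM in NCTD_IP and 232 and 169 CPM in CONTROL_IP, with a log2 fold change of 0.48 (SE 0.19), and Atp5o was the remaining gene. The tumors of NCTD_IP both lay above both controls for 26 genes (16.3% of all genes) and below them for 9 (18%).

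In PTX_IP 3 genes were higher and 0 lower at an unadjusted p below 0.05 by edgeR, against 3% and 2.3% of all genes, and the median was 0.00 against 0.01, with 41 of 82 estimates below 0 (48.8% of all genes). Without PTX_IP_3 the count at that threshold was 11, with 8 higher and 3 lower, beside 1702 of 12964 genes in all. The genes were Ndufv1, at 68.4 and 83.4 CPM against 43.3 and 56.5 CPM in CONTROL_IP and a log2 fold change of 0.60 (SE 0.21), Atp5d at 0.59 (SE 0.19), and Atp5e. In MIX_IP 0 genes were higher and 0 lower at that threshold, against 1.39% and 1.55% of all genes, and the median was 0.06 against -0.01, with 28 of 82 estimates below 0 (51.2% of all genes). The MIX_IP median turned to -0.036 both without CONTROL_IP_2 and with Xist as covariate. The count at that threshold was 3 without CONTROL_IP_1 (452 of 13071 genes in all) and 1 without CONTROL_IP_2 (184 of 13005). The mitochondrially encoded subunits had values below 0 for all 13 genes in each IP comparison, with medians of -0.44 in NCTD_IP, -0.55 in PTX_IP and -0.19 in MIX_IP, and none was called. At an unadjusted p below 0.05 by edgeR, mt-Cytb, mt-Nd1, mt-Atp6, mt-Co3, mt-Nd3 and mt-Nd6 were lower in both NCTD_IP and PTX_IP. In PTX_IP mt-Co2, mt-Nd4, mt-Nd2 and mt-Nd5 were lower too. Over all genes, 1.67% were lower at that threshold in NCTD_IP and 2.3% in PTX_IP. With 2 tumors a group, these comparisons show only large differences.

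In a model of all 23 tumors, the log2 fold change of NCTD by the IT route minus that by the IP route had a median of -0.55 over 83 genes, against 0.05 over all genes. None passed the threshold (0% of 13395 genes did), 31 were lower and 0 higher at an unadjusted p below 0.05 by edgeR, against 5.34% and 5.5% of all genes, and 75 of 83 estimates were below 0 (47.2% of all genes). Among the 31 were 10 genes of complex I, 0 of complex II, 4 of complex III, 8 of complex IV and 9 of complex V. Atp5j2, subunit f of ATP synthase, had 277, 249.6, 316 and 329 CPM in NCTD_IT and 423 and 469 CPM in NCTD_IP. Its change against CONTROL_IT minus its change against CONTROL_IP was -0.87 (SE 0.25), with an adjusted p of 0.294 by edgeR. Xist had a mean of 9.32 CPM in NCTD_IT and 0 in NCTD_IP. A difference between routes and one with the sex-linked genes therefore cannot be told apart here. For PTX 7 genes were lower and 0 higher at that threshold (2.64% and 2.59% of all genes), with a median of -0.23, and for MIX 2 were lower and 1 was higher (2.69% and 4.75%), with a median of -0.20.

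Isoforms that mark muscle or other tissues were near the floor of 3 counts, which is between 0.449 and 1.04 CPM per tumor. The 3′ libraries need not give more reads for longer genes, so levels per length are a rough guide between genes. Divided by the listed gene length, Cox6a1 of most tissues stood at 1138 CPM per kb over the 23 tumors and its muscle partner Cox6a2 at 2.7, and Cox7a2 at 1022 against 6.54 for the muscle isoform Cox7a1. Ndufa4 stood at 549 CPM per kb and Ndufa4l2, an isoform known to rise in hypoxia, at 1.42. Cox6b1 and Cox8a passed the filter, and Cox6b2, Cox8b, Cox8c and the lung isoform Cox4i2 did not. In NCTD_IT against CONTROL_IT, the log2 fold change was -0.33 (SE 0.23) for Cox6a1, -0.56 (SE 0.19) for Cox6b1, -0.43 (SE 0.15) for Cox7a2, -0.40 (SE 0.13) for Cox7a2l and -0.43 (SE 0.17) for Cox8a. For Cox6a2 it was 0.64 (SE 1.00) and for Cox7a1 -0.14 (SE 0.73), with standard errors larger than the estimates.

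Subunit c of ATP synthase forms the ring that turns in the membrane, and 3 genes encode it with the same mature protein. Atp5g3 stood at 1140 CPM per kb, Atp5g2 at 107 and Atp5g1 at 24.8. Without division by length, their means over the 23 tumors were 2486, 179 and 122 CPM. In NCTD_IT, Atp5g1 had 94.6, 61.1, 96.5 and 73.1 CPM, below all 4 controls, and a log2 fold change of -0.83 (SE 0.21). Atp5g3 had 2358, 2086, 2758 and 1917 CPM in NCTD_IT against 2753, 2330.3, 2472 and 2324 CPM in CONTROL_IT, and a log2 fold change of -0.11 (SE 0.17). The groups of Atp5g3 overlapped. Atp5g2 varied most within groups, with 91.4, 227, 80.9 and 84.0 CPM in CONTROL_IT and 219, 46.4, 290.1 and 221 CPM in NCTD_IT, and its log2 fold change of 0.68 (SE 0.60) was about the size of its standard error.

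**Figure D5:**
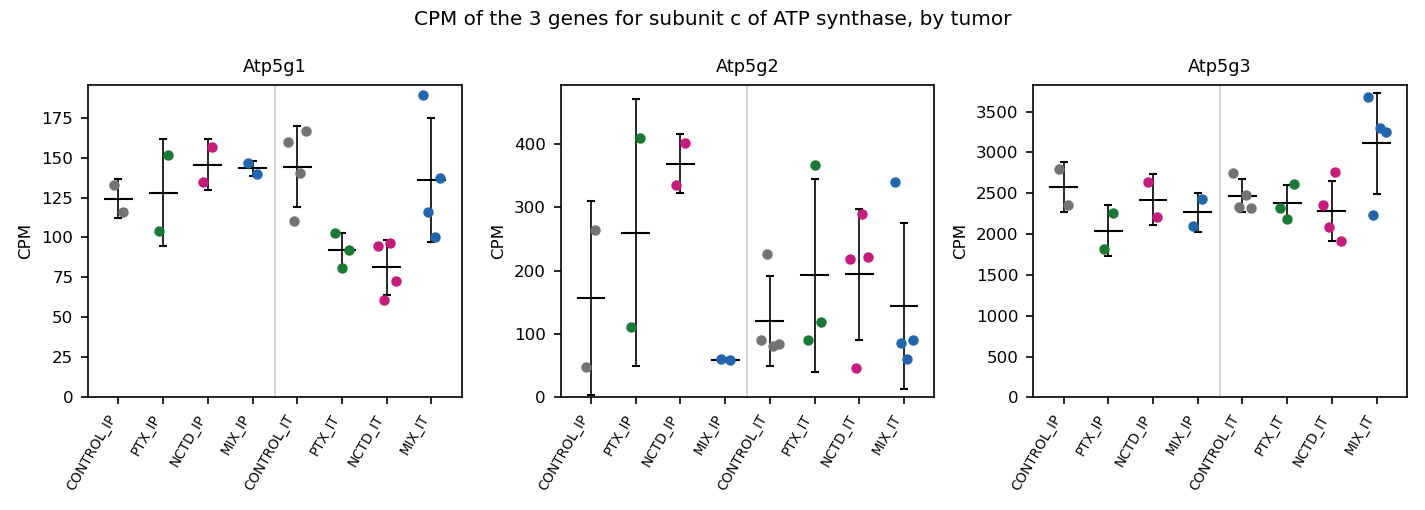
CPM (vertical axes, starting at 0) of the 3 genes for subunit c of ATP synthase in each tumor of the 8 groups, with the group mean as a line and bars of 1 SD. Atp5g1 is below the controls in all 4 NCTD_IT tumors, Atp5g3 overlaps them, and Atp5g2 spreads several-fold within groups of both routes.

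Within groups the subunit genes varied together from tumor to tumor. After the group mean was taken from the log2 CPM of each gene, the correlation of a gene with the median of the other subunit genes over the 23 tumors was above 0 for 75 of 83 genes, with a median of 0.62, against 0.01 over 13312 other genes. The median was 0.54 in complex I, 0.86 in complex II, 0.76 in complex III, 0.50 in complex IV and 0.70 in complex V. These values come from the same libraries and share their depth and scaling. Uqcrc1 was highest at 0.95, and Cox6a2 was lowest at -0.52, followed by Ndufb8 at -0.39, Sdhd at -0.34 and Atp5l at -0.31. Ndufb8, an accessory subunit of complex I, ranged from 73.0 to 481 CPM within MIX_IT alone. Uqcrc2, which pairs with Uqcrc1 in the core of complex III, had 345 counts over the 23 tumors against 21490. It stood at 1.26 CPM per kb against 51.1. In a later gene annotation, that of GENCODE, Uqcrc2 runs 1288 bases past the 3′ end listed for it, and Uqcrc1 runs 19 bases. Genes with many counts also ran past their listed ends, such as Cox7c (3689 bases, 229334 counts) and Cox7a2 (9594 bases, 98287 counts). Cox7a1, with 371 counts, ran 0 bases past its own. A low count need not mean low expression, and the part of such a stretch in the counts was not tested.

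The genes that build and feed the complexes were followed from lists of their own. Of the assembly factors, 53 were tested in NCTD_IT and 0 were called, with 13 lower and 1 higher at an unadjusted p below 0.05 by edgeR and a median of -0.29. Over all genes tested there, 10% were lower and 11.6% higher at that threshold. Of 18 genes of the TCA cycle and pyruvate dehydrogenase, 6 were lower at that threshold and 0 higher, with a median of -0.28, and none was called. Of 14 regulators of mitochondrial biogenesis, among them Nrf1, Gabpa and Tfam, 0 were lower and 1 was higher, with a median of 0.00, and none was called. In PTX_IT the medians of these lists were -0.20, -0.19 and -0.10, and in MIX_IT -0.12, 0.06 and 0.19. Ppargc1a and Ppargc1b had log2 fold changes of 0.89 (SE 0.32) and 0.65 (SE 0.31) in MIX_IT. Both had an unadjusted p below 0.05 by edgeR (7.88% of all genes were higher there), and neither was called. In PTX_IP that of Ppargc1a was -0.77 (SE 0.30). Mitf had a mean of 353 CPM in MIX_IT, 451 CPM in NCTD_IT and 597 CPM in PTX_IT against 822 CPM in CONTROL_IT, and its part was not tested.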

How the data were processed

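RNA of 23 tumors in 8 groups was analysed, grouped by the sample labels, with a replicate number for each tumor that occurs once in the series. The authors prepared 3′ mRNA libraries, ran Trimmomatic on the reads and STAR 2.7.11b against GRCm39, as the submitters' processing notes name them, and deposited raw counts per gene without normalization. How the counting treated strand, multiply aligned reads and molecular identifiers is not given in the sources used here. Antisense, overlapping and near-identical genes can therefore share reads. All sample columns were used.

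Counts were analysed with edgeR 4.0.16 in R 4.3.3. Genes were kept by filterByExpr (minimum count 10, minimum total 15), libraries scaled by TMM, and quasi-likelihood models fitted to the 4 groups of a route, or to all 23 tumors for differences between routes, with two-sided tests and Benjamini-Hochberg adjustment over all genes tested. A standard error is the log2 fold change divided by the root of the F statistic. CPM used TMM factors over all 23 tumors, and correlations within groups used log2 CPM with a prior count of 2. The step was run on simulated counts with planted changes larger than those given here for subunit genes. It therefore does not show how well changes of their size are found. DESeq2 1.42.0, which the study used, other scalings and filters, other sets of tumors, Xist as a covariate and leaving out each tumor were alternatives.

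The members and the gene lists were chosen with earlier results of these data known. Named members are those that passed the threshold, the smallest unadjusted p below 0.05 of each complex in each comparison with control, fixed landmark subunits, tissue isoforms with their partners, and the highest and lowest correlation within groups. A gene among the fixed landmarks is not reported here. Members named beside these were chosen after their values were seen. Counts of any 2 tumors of a group differed beyond sampling noise (8.09 to 64.6 for chi-square over its degrees of freedom). The labels give no separate animal for each tumor, so p-values measure the spread between these samples. The floor of 3 counts covers counting error only.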

Additional observations from a re-analysis of the deposited data

Results flagged for a closer look

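Within the groups of 4 tumors, 129 sets of values of named subunit genes and of summed complexes were checked for a tumor far from the others, and 7 stood out by Dixon's test, where chance gives about 1 in 20. NCTD_IT_18 had 288 CPM of Ndufb5 against 344 to 350 in the other 3 tumors of its group, and CONTROL_IT_12 had 628 CPM of Ndufb3 against 742 to 743. NCTD_IT_19 had 124 CPM of Cyc1 against 83.5 to 90.2 in its group. MIX_IT_23 had 359 CPM of Cox8a against 600 to 619 and 4.85 CPM of Ndufa4l2 against 1.07 to 1.5, and it was also the MIX_IT tumor with the highest fibroblast markers. For Atp5g2, CONTROL_IT_10 had 227 CPM against 80.9 to 91.4 in the other controls, and MIX_IT_21 had 340 CPM against 60.9 to 90.9 in the other MIX_IT tumors. The sources of these values were not tested.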

How the results depend on the processing

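No paired analysis was possible because each replicate number occurs once in the series. The 3 calls in NCTD_IT (171 of 12480 genes in all) became 0 with Xist as a covariate (0 of 12480). They became 19 without the filter on low counts (1190 of 26878) and 18 with all 23 tumors in one fit (777 of 13395). With only the 2 groups compared they were 25 (946 of 11263), and in DESeq2 33 (1378 of 23520). With a tumor left out they were 0 to 1, beside 0 to 191 genes in all. Each other comparison with control and each contrast had 0 calls, except without the filter and in DESeq2. Without the filter there was 1 in NCTD_IP (71 of 23653 genes in all) and 1 in MIX_IP (51 of 23653). There were also 5 for the difference of NCTD between routes (283 of 29064) and 1 for that of MIX (139 of 29064). The departure from the sum had 6 (443 of 26878). In DESeq2 there were 4 for the difference of NCTD (79 of 29054) and 1 for the departure (21 of 26850). The counts at an unadjusted p below 0.05 moved without the filter to 6 in NCTD_IP (770 of 23653 genes in all), 5 in PTX_IP (974) and 2 in MIX_IP (746). With all 23 tumors they moved to 0 in PTX_IP (348 of 13395), 13 in PTX_IT (1075) and 17 in MIX_IT (2027). In DESeq2 they moved to 5 in NCTD_IP (288 of 21476), 1 in PTX_IP (243 of 21535) and 13 in PTX_IT (1070 of 22457). With 2 groups they moved to 1 in MIX_IP (651 of 11784). With Xist as a covariate these counts were 1 in MIX_IP (180 of 12424 genes in all), 4 in NCTD_IT (681 of 12480) and 1 in PTX_IT (445 of 12480). The medians were then 0.033 in NCTD_IP, -0.036 in MIX_IP, -0.13 in NCTD_IT and 0.081 in PTX_IT. In that fit the log2 fold change turned above 0 for Cyc1 in PTX_IT (0.0048, SE 0.39). In NCTD_IT it did so for Atp5b (0.10, SE 0.54), Cyc1 (0.033, SE 0.44), Atp5a1 (0.33, SE 0.41) and Uqcrfs1 (0.37, SE 0.34). For Ndufb6, Atp5h and Ndufb5 it stayed below 0 in NCTD_IT. The cause was not tested. By the IT route Xist was above the controls in every NCTD_IT and PTX_IT tumor and at 0 CPM in every MIX_IT tumor. For NCTD_IT and PTX_IT this fit therefore separates Xist and treatment poorly. Without single tumors the counts at an unadjusted p below 0.05 were 32 to 48 in NCTD_IT, 1 to 23 in PTX_IT, 4 to 13 in MIX_IT, 1 to 3 in NCTD_IP, 4 to 11 in PTX_IP and 0 to 3 in MIX_IP, and the medians were -0.48 to -0.37 in NCTD_IT, -0.33 to -0.17 in PTX_IT, -0.22 to -0.026 in MIX_IT, -0.043 to 0.064 in PTX_IP, 0.013 to 0.20 in NCTD_IP and -0.036 to 0.12 in MIX_IP. Over all genes, the counts in PTX_IT were 246 of 12943 without PTX_IT_15 and 1872 of 13039 without PTX_IT_16. In PTX_IP 1702 of 12964 genes passed that threshold without PTX_IP_3. The summed CPM of complex V in MIX_IP was 11253 with DESeq2's size factors and 11358 by library size, against 11233 with TMM. With 2 to 4 tumors a group, differences smaller than those called can be missed.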
